A study of Homo sapiens with 8 samples.

Results

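The cells described here grew in flat (2-D) neural cultures whose names carry the protocol letters 3Wu. They were chosen by cell name alone, 926 cells from tag 1 and 1346 from tag 2, together 2272 of the 43693 cells deposited (5.2%). They were set against 2447 cells of protocol 2Fjo (1126 and 1321 in its tags) and 2019 cells of protocol 4Nic (682 and 1337). Every culture came from H1 cells, a long-established human pluripotent line, and none of these 6 tags carries a treatment. Single-cell libraries were made by split-pool barcoding, where repeated pooling and redistribution leaves a cell with a combination of barcodes. The 8 GEO samples were 8 sublibraries of 1 pool, so the culture is known only from the tag in the cell name, and 46 such tags exist. The labels define neither the protocol letters nor the age of the cultures, nor how flat cultures were taken apart into cells. Nor do they say whether the tags of a protocol are separate cultures, so p-values here measure only the spread between tags. The labels give hESC as the cell type, yet the 6 pluripotent markers, POU5F1 and NANOG among them, summed to only 2.31 to 3.27 CPM (counts scaled to a common library total, here the tag's own) in the 6 tags.

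In the developing forebrain, GABAergic neurons, which use the inhibitory transmitter GABA, are born in the ganglionic eminences of the ventral side, under DLX homeobox factors. The medial eminence is patterned by Sonic hedgehog and NKX2-1 and gives LHX6 and LHX8 neurons, while ISL1 marks striatal and motor lineages. Excitatory (glutamatergic) neurons of the cortex come from dorsal progenitors with PAX6, EMX2 and LHX2, pass through a stage with NEUROG2 and EOMES, and then express TBR1 and NEUROD6. WNT signals from the dorsal midline favour that dorsal fate.

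Total counts were 17218408 and 28467556 in the 3Wu tags, 31051067 and 28307599 in 2Fjo, and 14137580 and 46450493 in 4Nic. Median counts per cell were 15582 and 16750 in 3Wu and ranged from 15364 to 25853 in the other 4 tags. The median mitochondrial share was 4.91% and 2.66% in 3Wu, 3.83% and 3.13% in 2Fjo, and 6.54% and 6.44% in 4Nic. Cells called doublets made up 9.61% and 12.2% of 3Wu and 16.7% to 23.3% of the other tags. Tags of the same protocol correlated across genes at r = 0.980 to 0.987 on log2 CPM (3 pairs), and tags of different protocols at 0.918 to 0.952 (12 pairs). Genes are not independent replicates. Each sublibrary held 260 to 301 of the 3Wu cells, with 63.7% to 71.9% of them in the GABAergic neuron-like class, and no sublibrary stood apart. Of the 2272 3Wu cells, 283 had a barcode combination that also occurred in another sublibrary, as had 4894 of all 43693 cells.

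The 3Wu cultures consisted mainly of GABAergic neuron-like cells and held no cell of the excitatory class, which rests mainly on cortical markers. Clusters of all cells of the series were named from marker genes that were themselves kept out of the clustering. The GABAergic neuron-like class, from GAD1, GAD2, SLC32A1 and DLX genes, took 67.2% and 67.8% of the 3Wu tags (67.5% ± 0.414, SD, n = 2), with exact binomial intervals of 64.0% to 70.2% and 65.2% to 70.25%. It took 4.17% and 4.09% of the 2Fjo tags and 2.05% and 2.02% of the 4Nic tags. The mean share was 64.4 percentage points higher in 3Wu, and the 3Wu and other tags did not overlap. The two-sided exact permutation p was 0.0667, the smallest that 2 tags against 4 allow, so no share in this design can pass 0.05. Intervals cover counting error only.

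Excitatory neuron-like cells, from SLC17A7, TBR1 and NEUROD genes, numbered 0 of 926 and 0 of 1346 in 3Wu. A count of 0 allows shares of up to 0.324% and 0.223% (3 cells of the total), or 0.398% and 0.274% as the upper bounds of the exact binomial intervals. They made up 33.9% and 34.1% of 2Fjo and 24.2% and 19.1% of 4Nic (difference of the means -27.8 percentage points, exact permutation p = 0.0667). Choroid plexus-like cells, the epithelium that makes cerebrospinal fluid, were 1 and 0 cells in 3Wu. Their shares were 19.6% and 26.2% in 2Fjo and at most 0.150% in 4Nic (exact permutation p = 0.267).

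The 3Wu cells gathered in few clusters, with 97.2% of them in 3. Cluster 9, GABAergic neuron-like, held 1528 of them and cluster 27 held 604. Cluster 27 had no name from the markers and was led by CLIC5, LINC01206, DLK1 and FZD5. It took 27.2% and 26.1% of the 3Wu tags and at most 0.266% of any other of the 6 tags. Cluster 12, also unnamed, took 2.92% and 3.71% of 3Wu, 4.62% and 5.22% of 2Fjo, and 1.76% and 1.12% of 4Nic. Of all cells in clusters 9 and 27, 92.5% and 92.4% came from 3Wu, so each may mark that protocol and not a cell type. Of the 47 and 54 GABAergic neuron-like cells of 2Fjo, 53.2% and 55.6% lay in cluster 30, while 19 and 24 cells lay in cluster 9. In 4Nic tag 2, 59.3% of the 27 such cells lay in cluster 30, and no 4Nic cell lay in cluster 9. Clusters that filled the other protocols were nearly empty here. Cluster 28, with 8 of 8 cycling markers, took 25.2% and 24.2% of 4Nic and 0 cells of 3Wu. Cluster 24, with 8 of 8 mesenchymal markers, took 7.62% and 8.15% of 4Nic and 1 cell of 3Wu. Cluster 25, led by CDH6 and MIR31HG, took 24.6% and 35.8% of 4Nic and 0.540% and 0.669% of 3Wu, and 45.1% of its cells were called doublets.

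**Figure D1:**
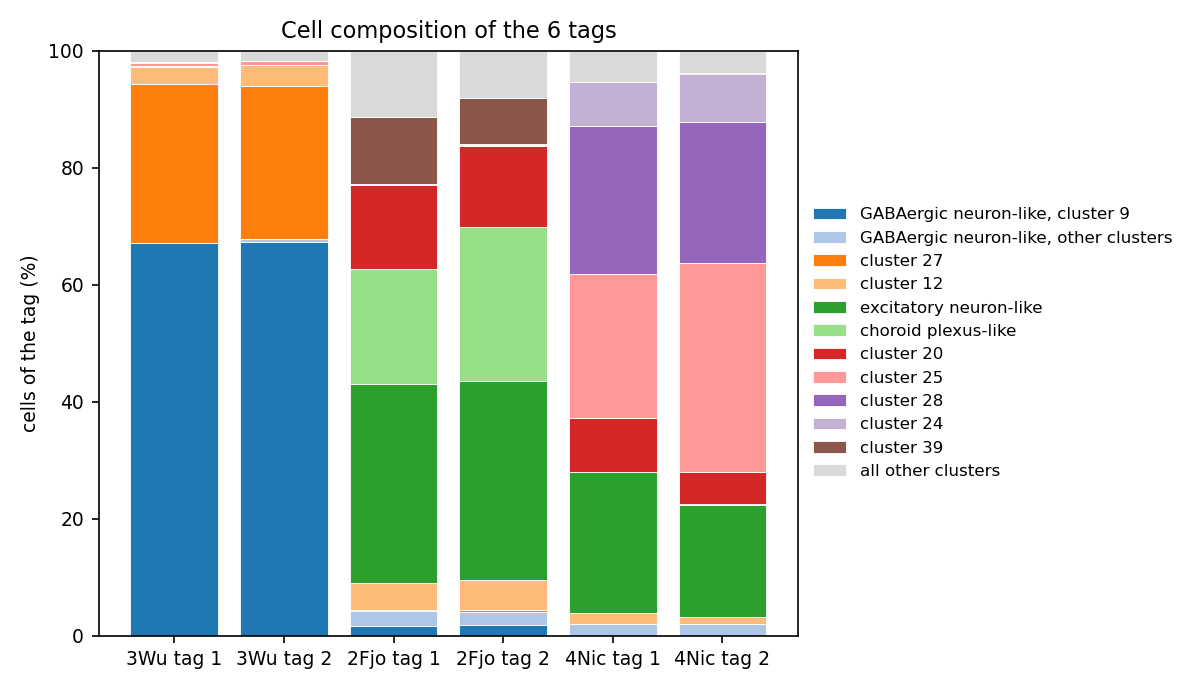
Share of the cells of each tag (percent, y axis) in each class or cluster of the series-wide clustering, for the 6 tags (x axis). Both 3Wu bars are filled by cluster 9 (67.2% and 67.3%) and cluster 27 (27.2% and 26.1%), which are nearly missing from the other 4 bars.

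Shares of cells with a count of a gene need no clustering. Cells were thinned to 3000 counts each, with 0 cells left out. A count of GAD1, which makes GABA, was then found in 25.5% and 27.6% of 3Wu cells, against 4.09% and 4.39% in 2Fjo and 2.49% and 2.92% in 4Nic. Without thinning the shares were 54.8% and 57.8%, 16.2% and 13.0%, and 10.9% and 16.1%. In choroid plexus-like cells of 2Fjo, which should lack GAD1, the thinned share was 5.47% of 567 cells, and the GAD1 shares of 2Fjo and 4Nic lie below it. GAD2 had a count in 0.882% of those cells, and in 4.89% and 4.32% of 2Fjo, 1.32% and 1.42% of 4Nic, and 18.8% and 15.2% of 3Wu cells. The median depth of the choroid plexus-like cells was 19600 counts, against 16327 in 3Wu cells. LHX8 had a count in 8.86% and 9.14% of 3Wu cells and in at most 0.147% of any other tag. PAX6 ran the other way, at 2.27% and 2.45% of 3Wu cells against 20.3% to 37.0% in the other 4 tags. SLC17A6, the glutamate transporter of many subcortical neurons, had a count in 2.70% and 1.86% of 3Wu cells, 7.73% and 8.18% of 2Fjo, and 3.37% and 2.62% of 4Nic, against 0 of the 567 choroid plexus-like cells. Its unthinned shares were 9.07% and 7.80%, 21.3% and 22.4%, and 9.82% and 9.95%, and all 3Wu cells with such a count lay outside the excitatory class. TBR1 had a count in 0.864% and 0.149% of 3Wu cells, 18.7% and 15.1% of 2Fjo, and 8.36% and 8.45% of 4Nic. For GAD1, LHX8 and PAX6 the exact permutation p was 0.0667, the smallest possible, for TBR1 it was 0.133, and for SLC17A6 0.200. MKI67, of dividing cells, was found in 4.54% and 4.98% of 3Wu cells, 9.06% and 9.39% of 2Fjo, and 16.9% and 15.5% of 4Nic (exact permutation p = 0.133).

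For tests across genes, counts were summed over all cells of a tag, so fewer cells of a type and less RNA per cell cannot be told apart in what follows. Levels are CPM on library sizes scaled by TMM unless another scale is named. Of 25637 genes tested with edgeR, 6844 (26.7%) differed between 3Wu and the mean of both other protocols at an adjusted p under 0.05, 3373 higher (13.2%) and 3471 lower (13.5%). Against 2Fjo alone 4354 differed (17.0%), with 7.79% of all tested genes higher and 9.19% lower. Against 4Nic alone 8748 differed (34.1%), with 16.0% higher and 18.2% lower. These 3 contrasts share the 3Wu tags. Counts of list genes called in a contrast, given below, are to be read beside its shares over all genes. In all 3, with both 3Wu tags beyond all 4 others, 1243 genes were higher (4.85%) and 1434 lower (5.59%). Counts of calls depended on single tags: without 3Wu tag 1 or tag 2 the first count was 3372 or 2865. Without 2Fjo tag 1 the count against 2Fjo was 2784, and without 4Nic tag 2 the count against 4Nic was 5309. In 1 fit over all 46 tags, some differences from the mean given below no longer passed, with edgeR adjusted p of 0.122 for EBF1, 0.133 for SP8, 0.0896 for TLE4, 0.0719 for BOC, 0.116 for COL3A1 and 0.0514 for HTR2C.

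Genes of GABA synthesis and packaging were higher in 3Wu. GAD1 measured 117 and 127 CPM in the 3Wu tags, 14.0 and 13.9 in 2Fjo, and 12.2 and 14.4 in 4Nic. It was thus 3.16 higher on the log2 scale than the mean of the others (SE 0.12; edgeR adjusted p = 4.6e-07), with no overlap. GAD2, the other GABA-making enzyme, measured 93.5 and 68.5 CPM in 3Wu, 21.0 and 18.4 in 2Fjo, and 5.90 and 5.14 in 4Nic (log2 difference 2.96, SE 0.16). The vesicular GABA transporter SLC32A1 reached 9.84 and 7.75 CPM in 3Wu and at most 1.91 elsewhere.

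The DLX homeobox factors of ventral forebrain moved with them. DLX1 measured 39.05 and 40.9 CPM in 3Wu, 3.56 and 2.67 in 2Fjo, and 1.05 and 1.29 in 4Nic (log2 difference 4.36, SE 0.19; edgeR adjusted p = 8.08e-07). DLX5 measured 18.6 and 13.3 CPM in 3Wu and at most 1.44 in any other tag, and DLX2 and DLX6 differed by 3.50 and 3.76 on the log2 scale. DLX6 overlaps the antisense gene DLX6-AS1, and whether counting used strand is not stated, so their reads cannot be told apart. In all, 8 of 8 GABAergic neuron genes were higher in each contrast, with a median log2 difference of 3.50 from the mean of the others, beside 0.004 over all genes tested.

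Transcription factors of the medial ganglionic eminence were among the largest rises. LHX8, a LIM-homeobox factor needed for cholinergic neurons of the basal forebrain, had the largest rise among the named genes. It measured 33.3 and 42.2 CPM in the 3Wu tags, 0.120 and 0.0695 in 2Fjo, and 0.323 and 0.146 in 4Nic. Both 3Wu tags lay above all others, with a log2 difference from the mean of both other protocols of 8.07 (SE 0.28; edgeR adjusted p = 3.1e-07). LHX6, which directs medial-eminence interneurons, measured 10.4 and 18.5 CPM in 3Wu, 0.777 and 0.313 in 2Fjo, and 0.0808 and 0.439 in 4Nic (log2 difference 5.06, SE 0.39; edgeR adjusted p = 1.5e-05). NKX2-1, which sets up the medial eminence and parts of the hypothalamus, was scarce, with 99 counts in 3Wu (1.196 and 2.465 CPM) and 1 in the other 4 tags. The ratio per total count was 260 with an exact counting interval of 45.6 to 10369. SFTA3, an RNA gene at the same locus, measured 10.1 and 14.1 CPM in 3Wu and at most 0.208 elsewhere (log2 difference 6.37, SE 0.30).

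Of the 10 medial-eminence genes, 6 were higher and 2 lower, with a median of 1.74 on the log2 scale. The calls of SST and ERBB4 were weak: neither passed without 3Wu tag 1, without either 4Nic tag, in DESeq2 or in 1 fit over all 46 tags. SST also failed without 3Wu tag 2, and ERBB4 without 2Fjo tag 1, with a replicate block or with equal cell numbers. The lower genes were MAF, an interneuron factor, by 1.95 on the log2 scale (11.8 and 7.20 CPM in 3Wu, 20.2 to 51.2 elsewhere), and NPY, a neuropeptide at or below 0.727 CPM in every tag. NPY no longer passed without 3Wu tag 2 (edgeR adjusted p = 0.214). NXPH1, a synaptic ligand of neurexins, measured 158 and 190 CPM (189.8 in tag 2) in 3Wu and 17.8 to 47.8 elsewhere. Within the GABAergic neuron-like class NXPH1 was lower in 3Wu than in 2Fjo, with no test. It was at 182.9 and 257.5 CPM by these cells' own total, against 725.8 and 867.6 in 2Fjo.

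The lateral-eminence list was mixed, with 5 of 10 tested genes higher, 3 lower and a median of 0.48. ISL1, of striatal and motor lineages, measured 17.1 and 15.1 CPM in 3Wu, 1.32 and 1.25 in 2Fjo, and 0.162 and 0.0244 in 4Nic. Both 3Wu tags lay above the rest, with a log2 difference from the mean of both other protocols of 5.83 (SE 0.30; edgeR adjusted p = 1.41e-06). The near-zero 4Nic level adds to that difference. GSX1, a factor of ventral progenitors, was rare, with 28 counts in 3Wu and 1 in the other tags. SP9, a zinc-finger factor, was higher by 3.16 on the log2 scale. SP8 was lower by 1.44 on that scale (edgeR adjusted p = 0.000613). MEIS2, abundant in the lateral eminence, measured 192 and 231 CPM in 3Wu, 225 and 199 in 2Fjo, and 541 and 389 in 4Nic. Its lower level against the mean did not pass without 3Wu tag 1 (edgeR adjusted p = 0.171) or tag 2 (0.0534). Of 9 medium spiny neuron genes tested, 6 were lower and 1 higher. FOXP2 fell by 3.01 and EBF1 by 1.68 on the log2 scale. FOXP1 was below 4Nic only, at 98.7 and 84.1 CPM in 3Wu, 71.2 and 77.0 in 2Fjo, and 425 and 447 in 4Nic.

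Further rises were in genes of other forebrain and neural tube territories. SIX3, a factor of the anterior forebrain, measured 45.2 and 40.02 CPM in 3Wu, 7.87 and 11.6 in 2Fjo, and 5.41 and 6.51 in 4Nic (log2 difference 2.48, SE 0.18). SIX6, its relative in hypothalamus and eye, had 23 counts in 3Wu and 0 in the other 4 tags, and passed in edgeR but not in DESeq2 (adjusted p = 0.304). Of 9 diencephalon and hypothalamus genes tested, 1 was higher than the mean of the others and 2 lower. Over all genes tested the shares were 13.2% and 13.5%, so these counts set the list little apart. RAX, on the same list as SIX6, had 5 counts in 3Wu and 198 in the other 4 tags. TFAP2B, a factor of neural crest and of some inhibitory neurons, measured 32.3 and 17.3 CPM in 3Wu, 1.11 and 1.01 in 2Fjo, and 0 and 0.0244 in 4Nic (log2 difference 7.30, SE 0.37). The growth factor FGF19 measured 11.3 and 9.22 CPM in 3Wu and at most 0.299 elsewhere. CLIC5, a chloride intracellular channel protein, measured 50.6 and 28.6 CPM in 3Wu and 0.889 to 1.44 elsewhere. PAX7, of dorsal neural tube and midbrain, measured 32.4 and 19.5 CPM in 3Wu and at most 1.76 elsewhere. Of 8 genes tested on the list of neural tube domains, 3 were higher and 2 lower. Among its members PAX3 and MSX2 had 109 and 3 counts in 3Wu, and 2689 and 596 in the other 4 tags. PAX5 and FGF8, both of the midbrain-hindbrain boundary, were higher by 3.14 and 2.67 on the log2 scale. Of the 7 midbrain and isthmus genes tested, these and PAX7 were higher, and GATA3, LMX1A and LMX1B lower. None of 20 HOX genes of hindbrain and spinal cord was abundant enough to test, and their summed level was 0.256 to 0.613 CPM by the tag's own total. Of the 12 largest rises the others were the non-coding LINC01201, LINC01206 and LINC00354, higher by 4.68, 4.62 and 4.56 on the log2 scale.

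The 250 bases before the start of a few of these genes are shown to set rising and falling genes side by side (RefSeq, GRCh38.p14, read along the gene's strand). They were picked after the values were seen. LHX8 lies on chromosome 1, SFTA3 on 14, TBR1 on 2 and NEUROD6 on 7. LHX8 and SFTA3 rose, and TBR1 and NEUROD6, described below, fell. Capitals mark TAATTA, the core bound by many homeodomain proteins, and CAGATG or its reverse complement CATCTG, an E-box of proneural factors.
LHX8 (chr1:75128184-75128433, plus strand): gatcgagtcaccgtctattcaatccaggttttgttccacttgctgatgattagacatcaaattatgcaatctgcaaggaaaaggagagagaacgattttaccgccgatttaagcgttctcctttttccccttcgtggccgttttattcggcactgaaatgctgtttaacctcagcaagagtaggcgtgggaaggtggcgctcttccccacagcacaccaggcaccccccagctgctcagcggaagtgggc
SFTA3 (chr14:36519557-36519806, minus strand): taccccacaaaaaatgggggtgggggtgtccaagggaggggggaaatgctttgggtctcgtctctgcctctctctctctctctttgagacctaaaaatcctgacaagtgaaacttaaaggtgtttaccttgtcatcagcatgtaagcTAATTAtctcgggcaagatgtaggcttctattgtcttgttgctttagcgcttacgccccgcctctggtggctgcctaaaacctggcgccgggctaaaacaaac
TBR1 (chr2:161416047-161416296, plus strand): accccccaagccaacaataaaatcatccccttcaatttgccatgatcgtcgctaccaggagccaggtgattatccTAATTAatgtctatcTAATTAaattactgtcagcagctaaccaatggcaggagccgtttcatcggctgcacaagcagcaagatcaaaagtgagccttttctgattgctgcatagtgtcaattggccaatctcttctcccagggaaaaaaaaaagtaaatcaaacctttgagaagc
NEUROD6 (chr7:31340727-31340976, minus strand): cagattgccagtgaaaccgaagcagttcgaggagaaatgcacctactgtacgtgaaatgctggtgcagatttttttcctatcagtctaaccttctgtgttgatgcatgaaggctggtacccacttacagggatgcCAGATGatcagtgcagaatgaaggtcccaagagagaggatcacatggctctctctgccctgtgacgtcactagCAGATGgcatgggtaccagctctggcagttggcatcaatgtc

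Of the 12 largest rises, 10 genes had a RefSeq window, 17 windows in all, and TAATTA stood in 1 of these genes, SFTA3. Of the 12 largest falls, 9 had a window, 13 windows in all, with TAATTA in TBR1 and CAGATG in NEUROD6 and TPBG. The E-box CATATG was in none. Of all 35116 windows of this length, 4.35% held TAATTA, 12.2% CAGATG on either strand and 2.63% CATATG. A match is a description of letters, and no match says only that they are not in this window. The annotated SFTA3 gene (chromosome 14, 36473288 to 36519556) overlaps NKX2-1 (36516397 to 36520232) and NKX2-1-AS1. Without a stated use of strand, reads from these genes cannot be told apart. The SFTA3 window shown above also lies within the annotated NKX2-1 gene.

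**Figure D2:**
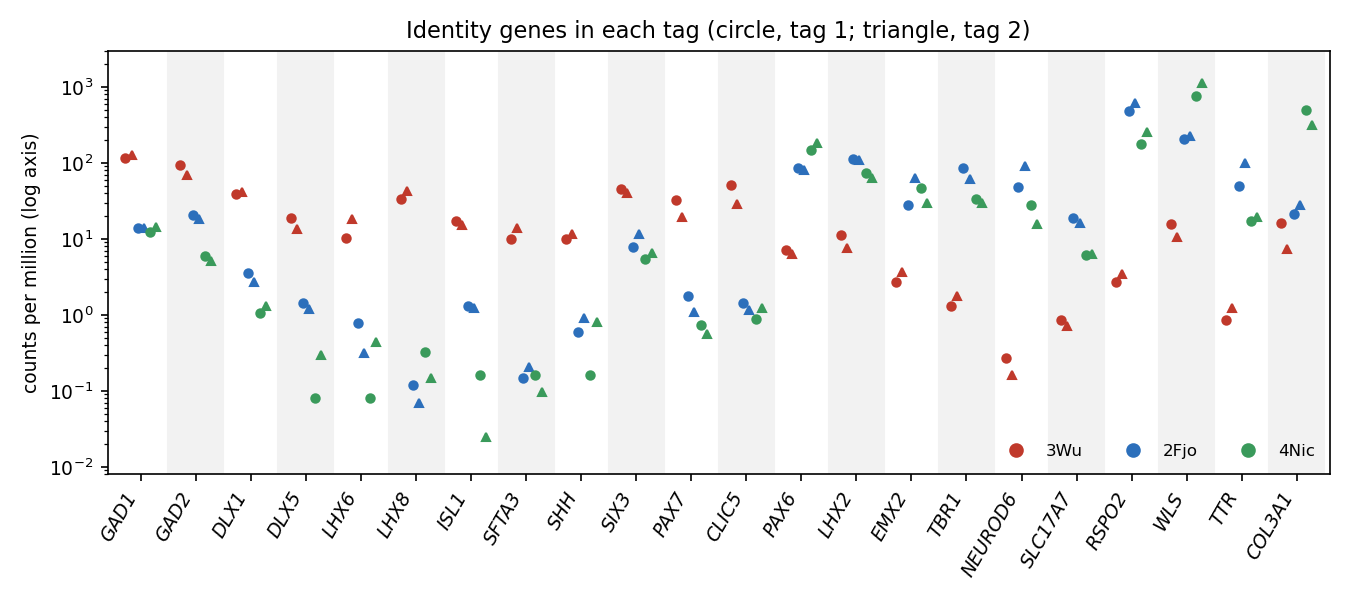
Level of identity genes in each tag (CPM on TMM-scaled library sizes, log axis; circle for tag 1, triangle for tag 2; red 3Wu, blue 2Fjo, green 4Nic). From GAD1 to CLIC5 both 3Wu points lie above the other 4, and from PAX6 to COL3A1 both lie below them.

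Several genes of the dorsal, excitatory lineage were lower in 3Wu, with examples from progenitors and from neurons. PAX6, of dorsal progenitors, measured 7.18 and 6.34 CPM in 3Wu, 86.2 and 79.8 in 2Fjo, and 148 and 181 in 4Nic. It fell by 4.12 on the log2 scale (SE 0.16; edgeR adjusted p = 4.6e-07). NEUROG2, a proneural factor of excitatory lineages, had 2 counts in 3Wu and 1196 in the other 4 tags, a ratio of others to 3Wu of 228 per total count (counting interval 62.9 to 1883). EOMES, of intermediate progenitors, measured 0.435 and 0.192 CPM in 3Wu and 4.87 to 10.3 elsewhere. TBR1, of deep-layer cortical neurons, measured 1.31 and 1.79 CPM in 3Wu, 84.6 and 62.2 in 2Fjo, and 33.2 and 29.97 in 4Nic (log2 difference -4.92, SE 0.23; edgeR adjusted p = 1.09e-06). NEUROD6, of maturing cortical excitatory neurons, measured 0.272 and 0.160 CPM in 3Wu, 48.5 and 90.1 in 2Fjo, and 28.03 and 15.8 in 4Nic. It fell by 7.54 on the log2 scale (SE 0.50). DMRT3, a factor of dorsal telencephalic progenitors, had 3 counts in 3Wu and 1712 elsewhere. BHLHE22 and HOPX, the second a marker of outer radial glia, had 4 and 6 counts in 3Wu and 2621 and 1369 elsewhere.

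Glutamate transport showed a less even picture. SLC17A7, the vesicular glutamate transporter of cortical neurons, measured 0.870 and 0.704 CPM in 3Wu, 18.9 and 16.0 in 2Fjo, and 6.06 and 6.29 in 4Nic (log2 difference -3.74, SE 0.25). SLC17A6 measured 10.01 and 7.59 CPM in 3Wu, 27.9 and 38.9 in 2Fjo, and 13.6 and 8.16 in 4Nic. Its log2 difference from 2Fjo was -1.93 (edgeR adjusted p = 0.00121). Against 4Nic it did not pass (edgeR adjusted p = 0.474), and against the mean it no longer passed without 3Wu tag 2 (0.137). Of 8 excitatory neuron genes, 7 were lower and 1, TLE4, higher, with a median of -2.81. TLE4, a corepressor used widely beyond cortex, measured 414 and 383 CPM in 3Wu and 183 to 310.3 in the other tags.

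Of 10 telencephalon and cortical patterning genes, 7 were lower, and only SIX3, given above, was higher, with a median of -2.78. LHX2, a selector of cortical fate, measured 11.2 and 7.71 CPM in 3Wu, 114 and 109.6 in 2Fjo, and 74.6 and 63.1 in 4Nic (log2 difference -3.23, SE 0.18; edgeR adjusted p = 2.74e-06). EMX1 and EMX2, of dorsal telencephalon, fell by 2.90 and 3.69, and the nuclear receptors NR2F1 and NR2F2 by 3.24 and 3.77. Among intermediate progenitor genes 4 of 8 were lower and 2 higher, and against 4Nic 3 were lower and 2 higher. INSM1, one of the higher ones, is shared by many newborn neurons and did not pass without 3Wu tag 1 (edgeR adjusted p = 0.0987).

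**Figure D3:**
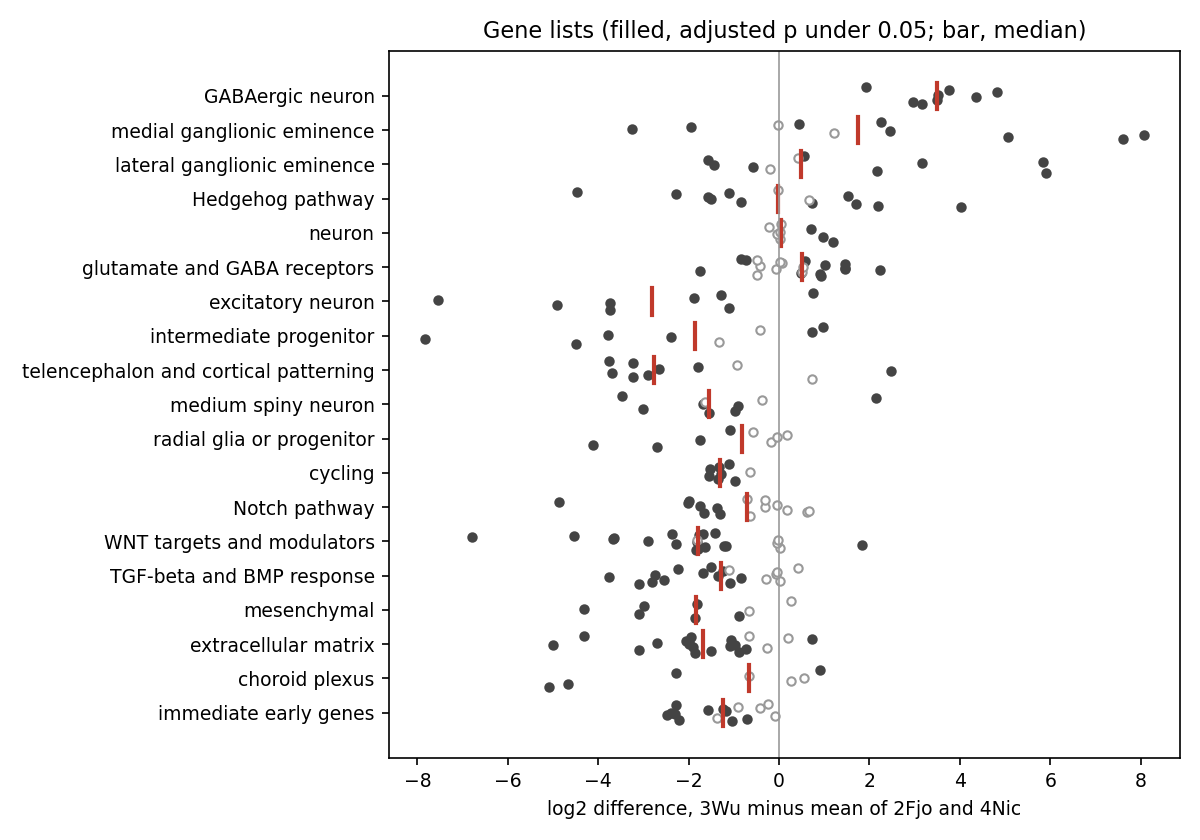
Log2 difference of each tested gene (x axis; 3Wu minus the mean of 2Fjo and 4Nic) by gene list (y axis), with filled points for an edgeR adjusted p under 0.05 and a red bar for the median. All 8 GABAergic neuron genes lie to the right (median 3.50), while the medians of the excitatory (-2.81) and WNT (-1.80) lists lie to the left.

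Hedgehog genes split by role. In this pathway SHH or DHH binds PTCH receptors, which frees SMO, and GLI factors then act on targets that include PTCH1 and HHIP. SHH measured 10.1 and 11.7 CPM in 3Wu, 0.598 and 0.903 in 2Fjo, and 0.162 and 0.804 in 4Nic (log2 difference 4.02, SE 0.33; edgeR adjusted p = 2.02e-05). DHH was higher by 2.18. PTCH1, receptor and target, measured 86.8 and 91.1 CPM in 3Wu, 49.0 and 38.0 in 2Fjo, and 17.4 and 17.3 in 4Nic (log2 difference 1.695, SE 0.131). HHIP was also higher than the mean of the others, but did not pass without 3Wu tag 1 or tag 2 (edgeR adjusted p = 0.101 and 0.0746). GLI1, a direct target, did not pass the test (1.03 and 0.672 CPM in 3Wu, 0.120 to 1.46 elsewhere, edgeR adjusted p = 0.316).

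The co-receptors and the other GLI factors were lower. CDON measured 98.2 and 81.1 CPM in 3Wu and 408 to 451 elsewhere (log2 difference -2.29, SE 0.12; edgeR adjusted p = 1.73e-06). BOC and GAS1, which also help SHH bind, fell by 1.11 and 4.47. GLI3, largely a repressor, measured 199 and 184 CPM in 3Wu, 379 and 358 in 2Fjo, and 874 and 860.5 in 4Nic, and GLI2 fell by 1.51. SMO fell by 0.85 but did not pass without 3Wu tag 1 or tag 2 (edgeR adjusted p = 0.12 and 0.088). Over the list 5 of 13 tested genes were higher and 6 lower, with a median of -0.02, and 3 were higher without 3Wu tag 1. NTN1, a guidance cue of floor plate and other ventral cells, measured 183 and 160 CPM (159.6 in tag 2) in 3Wu and 21.3 to 32.5 elsewhere. Floor plate markers did not move as a list, with 2 of 6 tested higher and 2 lower. LMX1A fell by 4.91 on the log2 scale.

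Of 21 WNT genes tested, 16 were lower than the mean of the others, 1 was higher and 4 did not pass, with a median of -1.80. Against 4Nic alone 14 were lower. RSPO2, a secreted amplifier of WNT signals, measured 2.72 and 3.49 CPM in 3Wu, 489.9 and 622 in 2Fjo, and 178 and 256 in 4Nic. Both 3Wu tags lay below all others (log2 difference -6.78, SE 0.24; edgeR adjusted p = 4.01e-07). Its relatives RSPO1 and RSPO3 fell by 3.66 and 4.53. WLS, which carries WNT proteins out of the cell, measured 15.9 and 10.7 CPM in 3Wu, 205 and 228 in 2Fjo, and 754 and 1125 in 4Nic (log2 difference -5.09, SE 0.24). The targets AXIN2 and LEF1 fell by 1.83 and 1.80, and the ligand WNT7B by 2.37. LGR5, a receptor for the RSPO proteins, was the gene that rose, with 30.5 and 19.7 CPM in 3Wu and 5.56 to 9.94 elsewhere. RSPO2 had a thinned count in 80.6% of the choroid plexus-like cells of 2Fjo. The part of these cells in the RSPO2 result was not tested.

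Of 15 Notch genes 7 were lower than the mean of the others and none higher, with a median of -0.70. Against 2Fjo 5 were lower and none higher, and against 4Nic 8 were lower and 2 higher. HEY2, a Notch target, measured 0.435 and 0.160 CPM in 3Wu and 5.51 to 12.2 elsewhere, and HES1 and HEY1 fell by 1.76 and 2.02. JAG1, a ligand, was lower than 4Nic (-2.42, edgeR adjusted p = 8.63e-06), with 23.6 and 22.5 CPM in 3Wu, 28.6 and 29.9 in 2Fjo, and 103 and 144 in 4Nic. Of 18 TGF-beta and BMP response genes 12 were lower than the mean and none higher, with a median of -1.29. Against 2Fjo 8 were lower and 1 higher, and against 4Nic 11 were lower and none higher. SMAD6, a feedback inhibitor, measured 3.86 and 3.17 CPM in 3Wu, 13.6 and 10.6 in 2Fjo, and 25.4 and 42.0 in 4Nic. In 1 fit over all 46 tags 6 TGF-beta and BMP genes were called lower.

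Matrix and mesenchymal genes were lower than in 4Nic, and differed from 2Fjo in both directions. Of 20 extracellular matrix genes 17 were lower than in 4Nic and none higher, while against 2Fjo 8 were lower and 4 higher. COL1A1, a chain of type I collagen, measured 56.7 and 70.0 CPM in 3Wu, 30.7 and 51.8 in 2Fjo, and 1232 and 1327 in 4Nic. Its log2 difference from 4Nic was -4.33 (SE 0.24), and its difference from 2Fjo did not pass (0.62, edgeR adjusted p = 0.0727). COL1A2 was higher than in 2Fjo (log2 difference 1.61, edgeR adjusted p = 0.00117) and lower than in 4Nic (-3.40). FN1, fibronectin, measured 43.6 and 80.4 CPM in 3Wu, 82.1 and 89.4 in 2Fjo, and 1956 and 1846 in 4Nic. COL6A3 and COL3A1 were lower than both others. COL3A1 measured 16.4 and 7.39 CPM in 3Wu, 21.6 and 28.1 in 2Fjo, and 493 and 316 in 4Nic. All 8 mesenchymal markers were below 4Nic, while against 2Fjo 3 were lower and 2 higher. Their summed level by the tag's own total was 179 and 173 CPM in 3Wu, 124 and 143 in 2Fjo, and 2193 and 2150 in 4Nic. The part of these cells in the matrix and TGF-beta results was not tested. Against the mean of both, 6 mesenchymal and 16 matrix genes were lower, and 2 and 7 in 1 fit over all 46 tags.

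Genes of dividing cells were mostly lower than in 4Nic. Of 18 cell cycle genes 14 were lower than in 4Nic and 1 higher, and against 2Fjo 4 were lower and 1 higher. Against the mean of both, 14 were lower and 2 higher. The higher ones were the cyclin genes CCNB2 and CCNE2, with log2 differences of 0.70 and 0.56. TOP2A, needed to separate chromosomes, measured 34.1 and 45.1 CPM in 3Wu, 47.6 and 83.5 in 2Fjo, and 186 and 132 in 4Nic. Of 8 cycling markers 7 were lower than in 4Nic and 2 lower than in 2Fjo. Against the mean of both 7 were lower, with a median of -1.30, and 1 in the fit over all 46 tags. Of 7 choroid plexus genes tested, 3 were lower and 1 higher, against 2Fjo as against 4Nic. TTR, the thyroid-hormone carrier secreted by that epithelium, measured 0.870 and 1.25 CPM in 3Wu, 49.4 and 101 in 2Fjo, and 17.0 and 19.7 in 4Nic (log2 difference -5.09, SE 0.36; edgeR adjusted p = 9.07e-06). HTR2C, a serotonin receptor abundant there, measured 77.9 and 100.5 CPM in 3Wu, 1108 and 874 in 2Fjo, and 175 and 205 in 4Nic. The thinned share of cells with an HTR2C count did not follow that level, at 13.9% and 18.1% in 3Wu, 14.6% and 16.5% in 2Fjo, and 7.62% and 8.08% in 4Nic. Summed choroid plexus markers were at 172 and 184 CPM in 3Wu, 1326 and 1074 in 2Fjo, and 214 and 257 in 4Nic by the tag's own total.

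Immediate early genes, which respond to activity and to handling, were lower in 3Wu, with 10 of 15 called and none higher (median -1.25). EGR1 measured 15.7 and 12.7 CPM in 3Wu, 115 and 131 in 2Fjo, and 48.9 and 53.1 in 4Nic (log2 difference -2.49, SE 0.15; edgeR adjusted p = 3.58e-06). FOS measured 11.04 and 13.2 CPM in 3Wu, 43.6 and 38.2 in 2Fjo, and 14.4 and 16.4 in 4Nic. FOS was lower than 2Fjo but did not pass against 4Nic (edgeR adjusted p = 0.18).

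Among genes of neuronal function, NRXN3, a presynaptic adhesion protein, was abundant and higher. It measured 6463 and 5606 CPM in 3Wu, 1116 and 976 in 2Fjo, and 710.2 and 797 in 4Nic (log2 difference 2.76, SE 0.10; edgeR adjusted p = 4.6e-07). Of general neuron genes 3 of 8 were higher, with a median of 0.03. STMN2, a cytoskeletal protein of growing axons, measured 229 and 244 CPM in 3Wu and 57.9 to 160.4 elsewhere. GPHN, which anchors GABA and glycine receptors, was higher by 0.92, and SYN2, of synaptic vesicles, fell by 1.44. Of 20 glutamate and GABA receptor genes 9 were higher and 3 lower than the mean of the others. Against 2Fjo 5 were higher and 4 lower, and against 4Nic 10 were higher and 3 lower. GRIA4, an AMPA receptor subunit of interneurons, measured 289 and 212 CPM in 3Wu and 42.3 to 80.0 elsewhere, while its relative GRIA3 fell by 1.76 on the log2 scale. The sodium channel SCN1A was higher by 1.88 and the potassium channel KCND2 by 1.63, and KCNQ3 fell by 2.81. Of 16 voltage-gated channel genes 7 were higher and 4 lower than the mean of the others. Against 2Fjo 5 of these were higher and 6 lower, and against 4Nic 9 and 5. Of 16 synaptic genes 6 were higher and 2 lower than the mean, 4 and 3 against 2Fjo, and 8 and 3 against 4Nic. SLC5A7, which takes up choline, had 2.18 and 1.44 CPM in 3Wu and at most 0.139 elsewhere. CHAT, which makes acetylcholine, measured 2.07 and 2.08 CPM in 3Wu, 5.74 and 3.92 in 2Fjo, and 0.162 and 0.390 in 4Nic, so it lay below 2Fjo and above 4Nic (edgeR adjusted p = 0.0263 and 0.00108).

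Clustering the cells of the 6 tags alone showed how the 3Wu cells differ among themselves. The values that follow are CPM by the total of the cells named, given for tag 1 and tag 2, with no test. The largest group, cluster 0, was GABAergic neuron-like and held 431 and 497 cells (46.5% and 36.9% of the tags). It had the most ISL1 (31.9 and 35.1 CPM) and FGF19 (22.5 and 19.6), high GAD2 (164 and 141), and LHX8 at 25.4 and 25.5. It also had the most SLC17A6, the glutamate transporter, at 20.3 and 19.8 CPM against 0 and 1.82 in cluster 4. HDC, which makes histamine, was at 25.6 and 18.9 CPM in cluster 0, and PRLR, the prolactin receptor, at 58.7 and 52.7. Cluster 4, also GABAergic neuron-like, held 93 and 248 cells (10.04% and 18.4%). Here LHX8 reached 156 and 145 CPM, LHX6 80.1 and 78.9, GAD1 274 and 243, and ISL1 only 9.27 and 10.3. Its SHH stood at 27.8 and 30.2 CPM, above the 6.55 and 6.20 of cluster 0. SLC5A7 was also highest in cluster 4, at 18.5 and 8.11 CPM. CHAT was at 9.93 and 7.22 CPM there and at 2.56 and 7.302 in cluster 7. Cluster 0 thus carried more ISL1 and cluster 4 more LHX6 and LHX8, in both tags.

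Cell by cell, LHX6 had a count in 24.7% and 41.3% of 3Wu cells with an LHX8 count and in 3.94% and 6.22% of those without. ISL1 had a count in 25.1% and 23.7% of cells with LHX8 and 17.4% and 18.6% of those without. SLC17A6 had a count in 8.09% and 6.43% of GAD1 cells and 10.3% and 9.68% of the rest. Deeper cells have more counts of every gene, so these shares are descriptions.

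Whether progenitor-like cells were named depended on the clustering. In the series-wide clustering 0 and 2 of the 3Wu cells were radial glia or progenitor-like, and of the 8 genes of that list 4 were lower in 3Wu than the mean and none higher. With the 6 tags alone, cluster 6, radial glia or progenitor-like, held 94 and 208 cells (10.2% and 15.5% of 3Wu against at most 0.0757% of other tags). It had SLC1A3, a glutamate transporter of radial glia, at 313 and 361 CPM, the progenitor filament gene NES at 141 and 167, LINC01206 at 56.5 and 78.2, and GAD1 at 8.83 and 11.5. PAX6 was at 9.17 and 4.75 CPM in it. SOX2, of the same marker list, had only 9 counts in all 3Wu cells and 134 in the other 4 tags. SOX2 lies within the non-coding gene SOX2-OT, and whether counting used strand is not stated. Reads of both cannot be told apart, so these few counts may understate SOX2 in all 6 tags. Cluster 12 of this clustering, with 128 and 93 cells (13.8% and 6.91%), stayed unnamed because too few markers were met. CLIC5 stood there at 292 and 293 CPM, PAX7 at 121 and 151, LGR5 at 144 and 181, PAX2 at 130.2 and 83.6, TFAP2B at 70.0 and 99.9, and SLC1A3 at 367 and 646. Its median mitochondrial share was 7.30% and 4.22%, above the 4.65% and 2.50% of cluster 0. PAX7 had a count in 49.3% and 43.9% of 3Wu cells with a CLIC5 count and in 10.8% and 5.50% of those without. CLIC5, PAX7 and LGR5 were thus highest in a cluster with high SLC1A3, where GAD1 was at 23.03 and 52.8 CPM.

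Most other 3Wu cells fell in clusters 7, 21 and 22. Cluster 7, unnamed, held 89 and 145 cells with LHX8 at 99.1 and 71.5 CPM but NRXN3 at only 1868 and 1415, against 9464 and 8637 in cluster 0. Cluster 22 held 35 and 57 cells with MKI67 at 784 and 915 CPM, and 64.5% of its cells were called doublets. Cluster 21, with 42 and 75 cells at a median of 33759 and 41113 counts, was 97.4% called doublets.

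**Figure D4:**
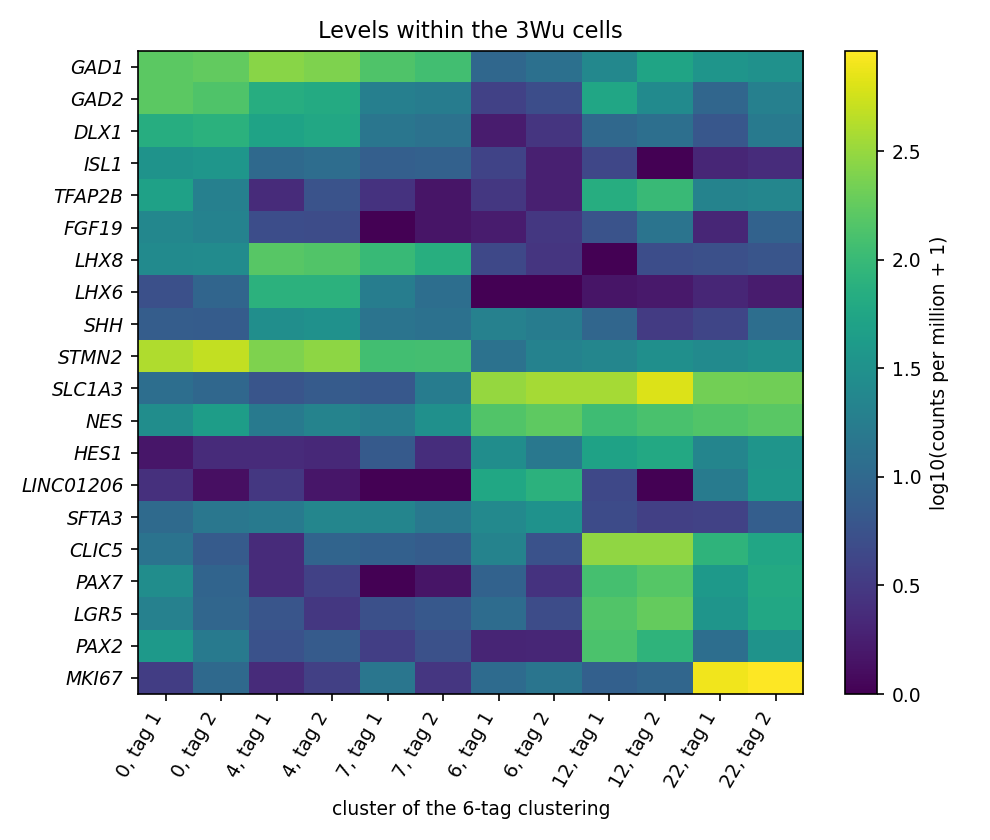
Level of 20 genes (rows; log10 of CPM + 1, colour scale) in 6 clusters of 3Wu cells for each tag (columns). LHX8 and LHX6 are brightest in cluster 4, ISL1 in cluster 0, SLC1A3 in clusters 6 and 12, and CLIC5, PAX7 and LGR5 in cluster 12, in both tags.

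Across all 46 tags of the series, several of these genes were highest in 3Wu. The values are CPM by the tag's own total, and the order is a description. LHX8 averaged 40.9 CPM in 3Wu, and the highest of the 40 tags outside these protocols was 1.65. ISL1 averaged 17.4 against at most 9.62, SIX3 46.1 against at most 17.9, and SFTA3 13.1 against at most 3.39. FGF19 averaged 11.1 against at most 1.93, CLIC5 42.7 against at most 4.596, and ZIC1, a factor of dorsal neural tube and septum, 190.4 against at most 125. LHX6 was shared: 1 tag of a 3-D protocol (3DProto2Xia, number 3) reached 15.85 CPM, above the lower 3Wu tag, where the 3Wu mean was 15.7. GAD1 was not highest in 3Wu, with a mean of 132 CPM and 3 of 44 other tags above its lower tag. For GAD2, at a mean of 87.5 CPM, 13 of 44 other tags were above. SHH and PAX7 each had 3 other tags above, with 3DFusiVehic number 3 at 19.7 and 3DProto2Xia number 2 at 70.7 CPM. PAX6, TBR1 and NEUROD6, at means of 7.30, 1.67 and 0.233 CPM, were lower in both 3Wu tags than in any of the 44 other tags. The share of GABAergic neuron-like cells in the 40 tags ran from 0 to 34.1% (median 6.94%), so both 3Wu tags lay above all of them.

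**Figure D5:**
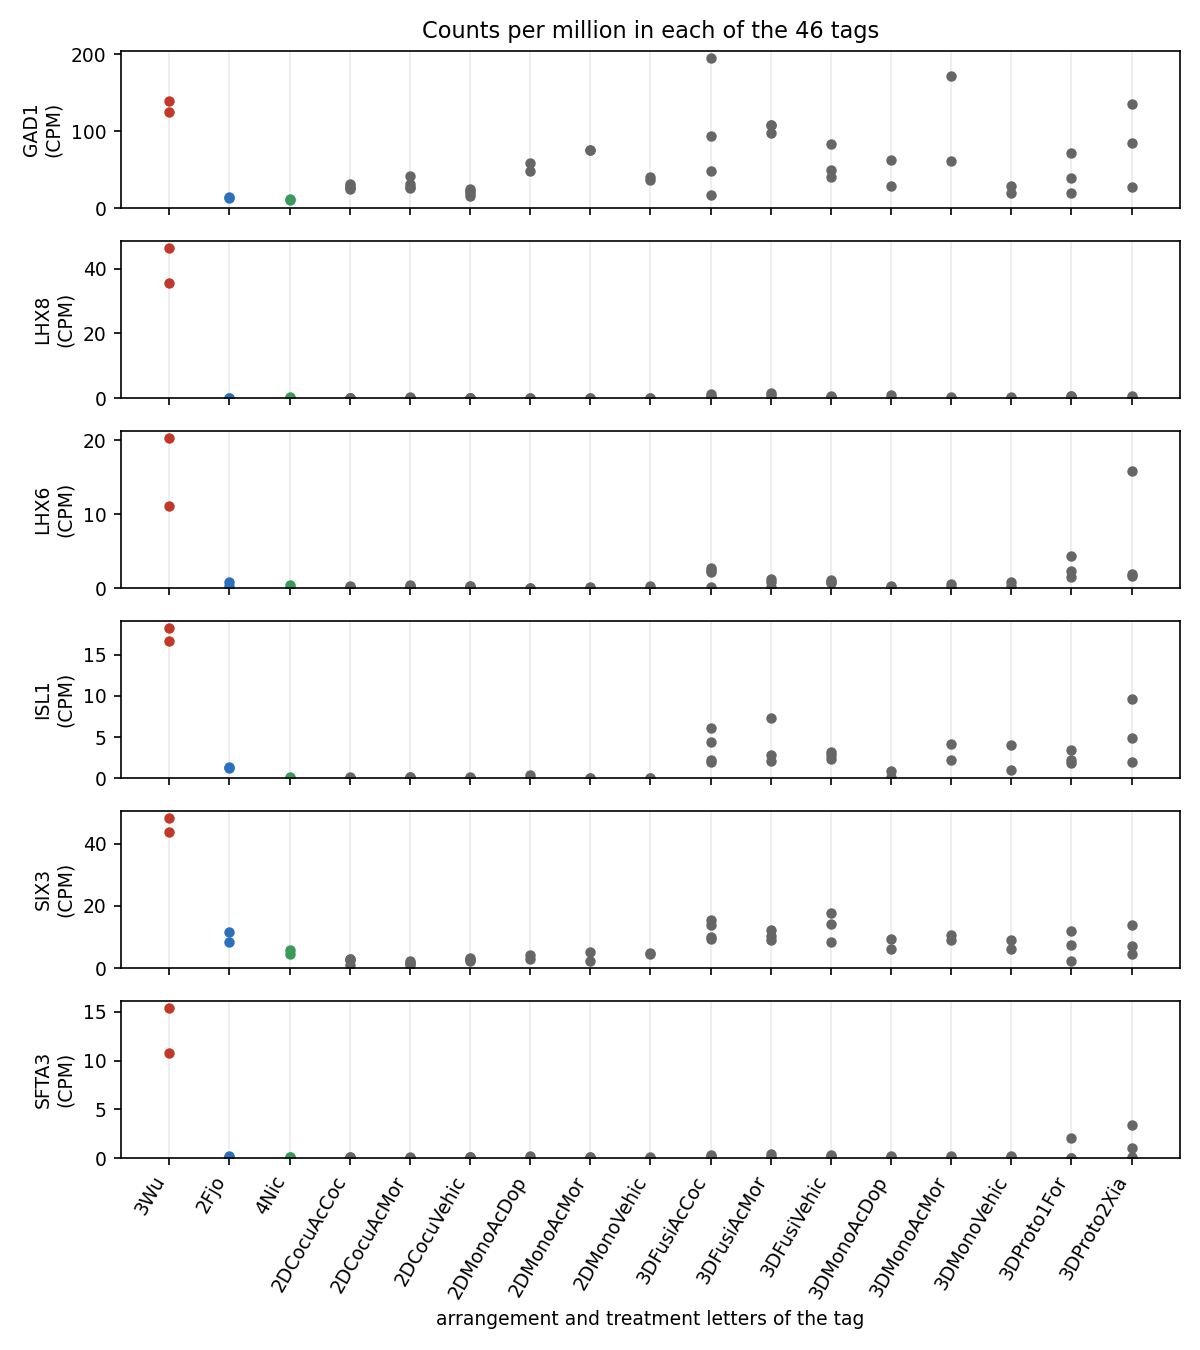
Level in CPM by the tag's own total (y axes, linear from 0) of 6 genes in each of the 46 tags (points), by arrangement and treatment letters (x axis; red 3Wu, blue 2Fjo, green 4Nic, grey the rest). LHX8, ISL1, SIX3 and SFTA3 are highest in both 3Wu tags, LHX6 is matched by 1 tag of 3DProto2Xia, and GAD1 is higher in 3 tags than in the lower 3Wu tag.

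GABAergic neuron-like cells of 3Wu also differed in level from those of other tags, here over tags with at least 20 such cells and with no test, since different clusters hold the class. In 3Wu (622 and 912 cells) LHX8 was at 49.7 and 64.2 CPM by their own total. It was at 0 and 0 in 2Fjo (47 and 54 cells) and 15.7 in 4Nic tag 2 (27 cells). Elsewhere it was at most 11.6 (2DCocuAcMor number 4, 23 cells). Without thinning, 1 of all 1337 cells of 4Nic tag 2 had an LHX8 count, so that level rests on 1 cell with a count. LHX6 was at 15.8 and 28.4 CPM, with 45.6 in 3DProto2Xia number 3. SIX3 was not particular to 3Wu among these cells. It was at 52.1 and 46.6 CPM in 3Wu, 47.0 in 4Nic tag 2, 42.5 in 3DFusiVehic number 1, and 16.0 and 25.9 in 2Fjo. GAD2 was lower here than in 2Fjo, at 130.4 and 101 CPM against 244 and 352. MEIS2 was at 130 and 170.3 CPM in 3Wu and 1727 and 1582 in 2Fjo, but low MEIS2 was not particular to 3Wu, with 162 and 159 CPM in 3DProto2Xia numbers 1 and 3 and 269 in 3DProto1For number 3. PAX6 and SP8 were likewise low in the 3Wu cells, at most 4.40 and 3.33 CPM, against 412 and 399 and 85.8 and 98.0 in 2Fjo.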

How the data were processed

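The deposited matrices of 8 sublibraries hold estimated counts per gene and cell. They were made by the authors with Salmon 1.7.0 and alevin on hg38, and Seurat 4.1.1 was used, per the submitters' processing notes. The unit follows from the values, of which 54.3% were whole. Whether counting used strand is not given in the sources used here. Cells were assigned to protocol and tag by their deposited names. All deposited cells were kept, called doublets included. The members and gene lists were chosen with earlier results of these data known.

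Counts were summed per tag over all sublibraries and rounded. Genes were filtered by protocol (filterByExpr), scaled by TMM and tested with edgeR 4.0.16 (quasi-likelihood, 6 tags in 1 fit, 3 protocol means) in R 4.3.3. P-values were adjusted by Benjamini-Hochberg, with a threshold of 0.05. The fit was tested on simulated data. Cells were clustered with leidenalg 0.10.2 (2000 variable genes, 30 components, resolution 0.8) without list or named genes. A cluster was named when at least 3 markers and 40% of a list were found in 10% of its cells at 2-fold or more, and left unnamed where markers of some other class outnumbered its own among the top 10 genes by fold. Shares were compared by exact permutation over 15 arrangements. A thinned cell kept 3000 counts, and values of 0.5 and above were taken as detected.

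Named genes were the 12 largest rises and 12 largest falls with a call in all contrasts, no overlap and at least 10 CPM, up to 4 called genes per list (at least 5 CPM), and class-defining and pathway genes. A few, such as those in promoter sequences, were singled out after their values were seen. Alternatives were other normalization, filter, tool, fit, cells and clustering, and each tag left out. Some items are not reported here.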

Additional observations from a re-analysis of the deposited data

How the results depend on the processing

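In 1 fit over all 46 tags, 3914 genes differed from the mean of both protocols, 2036 from 2Fjo and 5707 from 4Nic. Leaving out 1 tag gave 2865 to 7652, 1898 to 4891 and 4447 to 8942 genes. A tag left alone in its protocol was assumed to vary like the others. DESeq2 1.42.0 called 6080, 3968 and 7698 genes, and no filter gave 8325, 5726 and 10113. With the tag number as a replicate block the counts were 5605, 3400 and 7327. The labels do not say whether tags of the same number belong together. Correlations across genes of tag deviations between protocols were 0.13, -0.11 and -0.34. With 2 tags per protocol these cannot decide it.

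All 8 GABAergic genes were called higher without any 1 tag, and 6 or 7 excitatory genes lower. The difference in GABAergic neuron-like share ran from 64.0 to 64.75 percentage points without 1 tag, and the excitatory difference from -30.7 to -25.8. With the 6 tags clustered alone they were 52.7 and -19.9, and at resolutions 0.4 and 1.2 64.4 and 64.5, and -38.7 and -22.8. Only the radial glia-like share changed sign, from -0.0935 to 12.8 points when the 6 tags were clustered alone. The cause was not tested. Of 127 genes, 96 kept call and direction in every alternative. In the fit over 46 tags MEIS2, HHIP, INSM1, SLC17A6, TOP2A and COL1A1 also no longer passed against the mean, beside those named above. The test within a cell class was not run, since 0 classes had 20 cells in every tag.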
